A study of Mus musculus with 6 samples.

Results

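The 10 genes described here are pan-endothelial markers, a set given by name: Cdh5, Pecam1, Cldn5 and Esam of the junctions between endothelial cells, the receptors Tie1, Eng and Robo4, the surface proteins Emcn and Plvap, and the secreted Vwf. All 10 have a row in the deposited table of 20938 genes, and all 10 passed the filter on low values that left 11241 genes for testing. They were measured in RNA of whole subcutaneous tumours that B16F10 cells, a melanoma line of C57BL/6 mice, had formed in male C57BL/6 mice of 6 weeks. Each mouse was given the cells under the skin of a hind leg, in 200 µL of saline, and the tumour was taken on day 19. There were 3 tumours of cells overexpressing YKL-40, a secreted chitinase-like protein, and 3 control tumours. The genotype label is WT for both groups, the labels name neither the vector of either group nor the species of the overexpressed sequence, and they do not say that each library came from its own mouse. The p-values below therefore measure only the spread between these libraries.

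Endothelial cells line every blood vessel, and a tumour can grow only where vessels reach it. The cells hold together through adherens junctions built on VE-cadherin and tight junctions built on claudin-5, and PECAM-1 and ESAM sit at the same contacts. Tie1 and endoglin modulate angiopoietin and BMP signals, which balance the growth and the quiescence of vessels, and ETS family transcription factors such as ERG and FLI1 hold many of these genes active by binding sites with a GGAA core. YKL-40 has been described as an angiogenic factor in other tumours.

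The promoters of 4 members are shown because ETS sites are known in endothelial promoters. Whether such sites have a part in the levels reported here was not tested. Each window runs from 250 bases before to 50 bases after a RefSeq start site (GRCm38.p6, the build of which mm10 is the primary assembly), is written 5′ to 3′ on the strand of the gene, and has every GGAA and its reverse complement TTCC in capitals. The Tie1 window is at chr4:118489800-118490099, minus strand. The Robo4 window is at chr9:37401722-37402021, the Eng window at chr2:32646345-32646644 and the Cldn5 window at chr16:18776597-18776896, all plus strand.
Tie1: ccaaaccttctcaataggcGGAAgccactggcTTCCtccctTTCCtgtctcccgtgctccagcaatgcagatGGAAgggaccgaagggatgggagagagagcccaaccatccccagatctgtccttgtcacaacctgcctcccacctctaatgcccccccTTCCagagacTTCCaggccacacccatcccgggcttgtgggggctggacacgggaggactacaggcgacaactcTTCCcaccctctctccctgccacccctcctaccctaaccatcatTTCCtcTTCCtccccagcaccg
Robo4: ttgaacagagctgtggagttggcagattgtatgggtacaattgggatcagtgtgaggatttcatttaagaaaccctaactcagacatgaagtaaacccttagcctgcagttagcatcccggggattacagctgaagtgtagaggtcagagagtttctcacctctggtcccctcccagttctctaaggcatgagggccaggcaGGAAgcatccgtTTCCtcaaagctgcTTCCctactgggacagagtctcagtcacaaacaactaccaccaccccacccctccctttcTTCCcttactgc
Eng: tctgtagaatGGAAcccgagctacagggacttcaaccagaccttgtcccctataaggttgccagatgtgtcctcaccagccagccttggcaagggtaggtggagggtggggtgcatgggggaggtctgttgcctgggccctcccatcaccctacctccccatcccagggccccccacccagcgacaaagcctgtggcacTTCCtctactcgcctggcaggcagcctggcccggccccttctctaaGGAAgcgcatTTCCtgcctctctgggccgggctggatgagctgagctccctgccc
Cldn5: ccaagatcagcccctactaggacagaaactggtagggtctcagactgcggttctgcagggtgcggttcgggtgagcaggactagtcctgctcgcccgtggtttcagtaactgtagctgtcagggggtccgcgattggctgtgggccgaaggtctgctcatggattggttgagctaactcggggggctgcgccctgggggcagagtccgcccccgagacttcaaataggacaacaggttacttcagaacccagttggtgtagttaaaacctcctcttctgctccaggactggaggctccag
The Tie1 window held 9 matches to GGAA on either strand, the Robo4 and Eng windows 4 each, and the Cldn5 window 0. Promoter windows were found for 5 of the 10 members, the fifth being Emcn with 6 matches. GGAA alone is common, in 96.0% of the 32817 windows searched, so 4 of 5 members are no more than that share. The longer AGGAAG (reverse CTTCCT), which contains GGAA, was in 4 of the 5 windows and in 35.4% of all windows. CGGAAG (reverse CTTCCG) was in 1 of 5, that of Tie1, and in 16.9% of all. Neither TATAAA (reverse TTTATA) nor AGATAA (reverse TTATCT), a letter match for GATA factors, was in any of the 5, against 13.6% and 11.2% of all windows. These are matches of letters only.

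The libraries did not differ much in the table's own totals. The FPKM values, fragment numbers scaled to transcript length and library depth, summed to between 468605 and 490955 in the YKL-40 overexpressing libraries and between 469464 and 479586 in the controls. Relative depth was estimated from the most common ratio of low values to control 1, shared by 5 to 16 of 415 to 591 compared genes. It was 0.947, 1.20 and 1.12 in the YKL-40 overexpressing libraries 1 to 3, and 1, 1.10 and 1.33 in the controls 1 to 3. Chil1 (Chi3l1), the mouse gene of YKL-40, was at 0 in all 3 YKL-40 overexpressing libraries and had 0.0644, 0 and 0.0242 FPKM in the controls (p = 0.4 in an exact permutation test, two-sided, which with 3 libraries a group can give no p below 0.1). The labels are thus not checked by this gene, and all directions rest on them alone. Between the groups, limma with Benjamini-Hochberg adjustment called 49 of 11241 tested genes, 0.436%, of which 41 were higher (0.365%) and 8 lower (0.0712%) in YKL-40 overexpressing tumours.

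None of the 10 endothelial identity genes was called between YKL-40 overexpressing and control tumours. At an unadjusted limma p under 0.05 there was 1 of 10, Plvap, where 18% of all tested genes were below that p, 8.71% higher and 9.24% lower in YKL-40 overexpressing tumours. The groups of 0 of the 10 members were free of overlap, against 24.4% of all tested genes. Changes, given as YKL-40 overexpressing minus control on the scale of log2(FPKM + 1), ran from -0.28 for Cdh5 to 0.47 for Plvap, with 6 above 0 and 4 below. Their median was 0.05, beside -0.04 over all tested genes. In bulk tumour RNA, fewer endothelial cells and less of these RNAs per cell cannot be told apart. The labelled cells are melanoma cells, and the melanocyte and melanoma list was high in both groups, with summed levels from 8671 to 10820 FPKM in YKL-40 overexpressing libraries and from 8670 to 10140 FPKM in controls (0 of 9 tested genes called, 1 at an unadjusted p under 0.05, Pmel at 0.38).

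**Figure D1:**
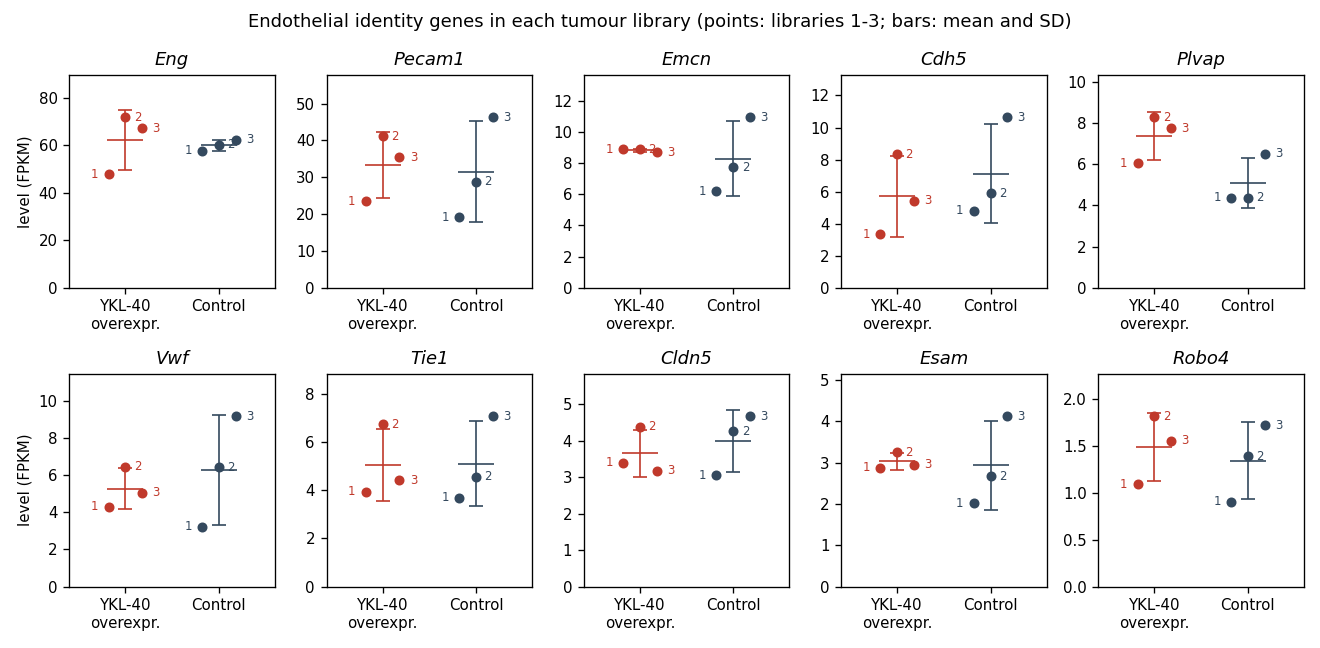
Level of each endothelial identity gene in FPKM (vertical axes start at 0 and differ by gene), ordered by mean level, with 3 YKL-40 overexpressing libraries on the left of each panel and 3 control libraries on the right. Points are libraries with their numbers, and bars are the mean and SD. In all 10 panels the groups overlap, and control library 3 is above library 2, which is above library 1.

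Among the junction genes, Pecam1 (chromosome 11, 106654213 to 106715281, minus strand) encodes the adhesion molecule CD31, which leukocytes and platelets also carry. It had 23.5, 41.1 and 35.4 FPKM in the YKL-40 overexpressing libraries 1 to 3, against 19.2, 28.8 and 46.3 FPKM in the controls 1 to 3. The lowest and the highest of the 6 values were both controls. The change was 0.13 ± 0.32 (SE, adjusted p = 0.858).

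Cdh5 (chromosome 8, 104101613 to 104144504, plus strand) encodes VE-cadherin, the cadherin of endothelial adherens junctions. Its levels were 3.33, 8.35 and 5.43 FPKM in the YKL-40 overexpressing libraries and 4.81, 5.91 and 10.6 FPKM in the controls. Library 1 of the YKL-40 overexpressing group was lowest and control 3 highest, 3.19-fold apart, the widest span of any member. The change was -0.28 ± 0.34 (SE, adjusted p = 0.697), and its 95% interval, from 0.477-fold to 1.42-fold, left room for a sizeable difference in either direction.

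Cldn5 (chromosome 16, 18776847 to 18778262, plus strand) encodes claudin-5, the main claudin of endothelial tight junctions. It had 3.39, 4.38 and 3.17 FPKM in YKL-40 overexpressing tumours and 3.04, 4.26 and 4.67 FPKM in control tumours. The ranges lay over each other, and the change was -0.10 ± 0.17 (SE, adjusted p = 0.799).

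Esam (chromosome 9, 37528089 to 37538319, plus strand) encodes an immunoglobulin-type adhesion molecule of endothelial contacts and platelets. Levels were 2.88, 3.26 and 2.95 FPKM in the YKL-40 overexpressing libraries, inside the 2.02, 2.67 and 4.13 FPKM of the controls. The means were 3.03 ± 0.202 FPKM in YKL-40 overexpressing tumours and 2.94 ± 1.08 FPKM in controls (SD, n = 3 each), so the controls were the more spread group.

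Of the receptors, Tie1 (chromosome 4, 118471191 to 118489849, minus strand) encodes a tyrosine kinase receptor that works with TEK, the receptor of angiopoietins. It had 3.94, 6.74 and 4.42 FPKM in YKL-40 overexpressing tumours, and 3.69, 4.55 and 7.07 FPKM in controls. The means, 5.03 ± 1.50 FPKM in YKL-40 overexpressing tumours and 5.10 ± 1.76 FPKM in controls (SD, n = 3 each), were closer than those of any other member, while the 95% interval of the fold still ran from 0.671 to 1.48.

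Eng (chromosome 2, 32646595 to 32682669, plus strand) encodes endoglin, a co-receptor for BMP9 and BMP10 that macrophages and stromal cells can also express. It was the most abundant member, with 47.7, 71.7 and 67.0 FPKM in the YKL-40 overexpressing libraries and 57.5, 60.1 and 62.3 FPKM in the controls. The 3 controls lay inside the range of the YKL-40 overexpressing group. The change of 0.03 ± 0.15 (SE, adjusted p = 0.941) had the narrowest interval of the members, 0.795-fold to 1.31-fold. Its annotated exons share 61 bases, 1.51% of their length, with Fpgs on the other strand, which the unstranded kit does not separate. For the other 9 members the annotation showed no shared exon bases.

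Robo4 (chromosome 9, 37401902 to 37414023, plus strand), an endothelial member of the roundabout receptor family that stabilises vessels, was the least abundant. It had 1.10, 1.82 and 1.56 FPKM in YKL-40 overexpressing tumours and 0.908, 1.39 and 1.72 FPKM in controls. The pseudocount of 1 FPKM shrinks changes at this level, and the fitted change was 0.09 ± 0.19 (SE, adjusted p = 0.828).

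Vwf (chromosome 6, 125552948 to 125686679, plus strand) encodes von Willebrand factor, which endothelial cells store and secrete to capture platelets, and which megakaryocytes make too. Levels were 4.30, 6.47 and 5.05 FPKM in the YKL-40 overexpressing libraries, within the 3.24, 6.44 and 9.19 FPKM of the controls. The change was -0.14 ± 0.31 (SE, adjusted p = 0.841). Control 3, the highest library for Vwf, also had the highest sum over 12 platelet and megakaryocyte genes, 32.4 FPKM, where the YKL-40 overexpressing libraries had 14.2 to 19.7 FPKM and the other controls 12.0 and 14.6 FPKM. Of that list, 2 genes passed the filter and 0 were called by limma (0 at an unadjusted p under 0.05). Itgb3, a platelet integrin subunit that endothelial cells also make, had a change of 0.00 with an SE of 0.18 (0.02 with median of ratios scaling), the chemokine Pf4 had one of 0.23, and Gp6 was at 0 in all 6 libraries. The part of platelets in the Vwf values was not tested.

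Emcn (chromosome 3, 137341062 to 137431069, plus strand) encodes endomucin, a sialomucin of capillary and venous endothelium. It had 8.86, 8.88 and 8.69 FPKM in the YKL-40 overexpressing libraries, and 6.18, 7.71 and 10.9 FPKM in the controls. The 3 YKL-40 overexpressing values were nearly equal (8.81 ± 0.105 FPKM) and lay inside the wider control range (8.27 ± 2.42 FPKM, SD, n = 3 each). With 3 libraries a group, the difference in spread was not tested.

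Plvap (chromosome 8, 71497753 to 71511806, minus strand) encodes the protein of the diaphragms of fenestrae and caveolae, a mark of permeable endothelium. It had 6.04, 8.27 and 7.74 FPKM in YKL-40 overexpressing tumours, against 4.37, 4.38 and 6.52 FPKM in control tumours. The groups overlapped only through control 3, which lay above YKL-40 overexpressing library 1. The means were 7.35 ± 1.16 FPKM in YKL-40 overexpressing tumours and 5.09 ± 1.24 FPKM in controls (SD, n = 3 each), and the change of 0.47 ± 0.17 (SE) had a limma p of 0.0301, adjusted p = 0.230 over all genes. A single member of 10 at that unadjusted p is close to the 8.71% of all tested genes that were higher there.

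**Figure D2:**
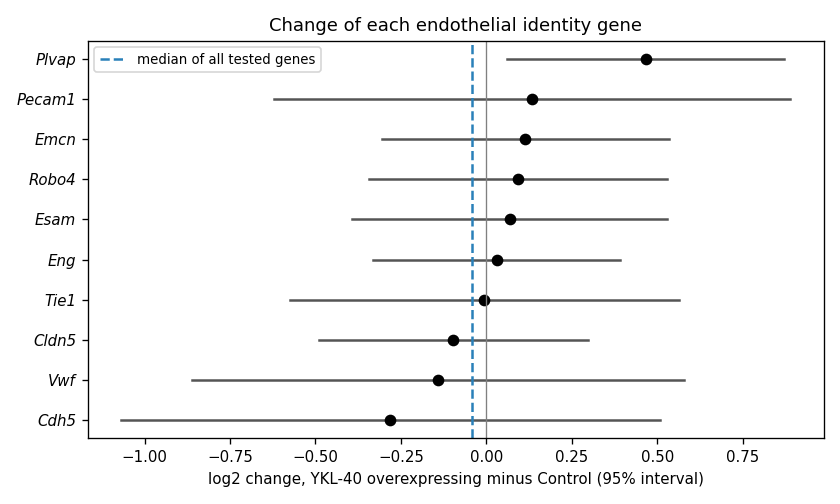
Log2 change of each member, YKL-40 overexpressing minus control, with its 95% interval from limma. The dashed line is the median of all tested genes at -0.04. Only the Plvap interval, 0.06 to 0.87, lies on one side of 0 before adjustment for the number of genes tested.

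Levels are scaled to transcript length, so members can be ordered. From high to low, their means over the 6 libraries were 61.0 FPKM for Eng, 32.4 for Pecam1, 8.54 for Emcn, 6.41 for Cdh5, 6.22 for Plvap, 5.78 for Vwf, 5.07 for Tie1, 3.82 for Cldn5, 2.98 for Esam and 1.42 for Robo4. Eng lay above the range of every other member. Each neighbour from Emcn down to Esam overlapped the next in its range over libraries, and Robo4 lay below the range of Esam. Eng and Pecam1 ranked above 86.5% and 74.7% of all tested genes in level, and Robo4 above 4.17%.

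Much of the variation of the members lay between libraries of a group and was shared. In all 10 members, control 3 was above control 2 and control 2 above control 1. Control 3 exceeded control 1 by 2.84-fold for Vwf, 2.41-fold for Pecam1 and 2.21-fold for Cdh5, and by 1.08-fold for Eng, the flattest. In the YKL-40 overexpressing group, library 2 was above both of the others for all 10. The library with the highest value was control 3 for 7 members and YKL-40 overexpressing library 2 for Eng, Plvap and Robo4. The lowest was control 1 for 8 members and YKL-40 overexpressing library 1 for Eng and Cdh5.

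Comparing libraries pairwise, all 10 members pointed the same way in 5 of the 6 pairs within a group and in 4 of the 9 pairs between groups. Between groups, all 10 were higher in YKL-40 overexpressing library 2 than in controls 1 and 2, and all 10 were higher in library 3 than in control 1. All 10 were lower in YKL-40 overexpressing library 1 than in control 3. The mean deviation of the 10 members from their own 6-library means was -0.23, 0.26 and 0.02 in the YKL-40 overexpressing libraries 1 to 3 and -0.37, -0.05 and 0.37 in the controls 1 to 3, on the log2 scale. Within groups, the median SD of a member was 0.27, beside 0.15 for all tested genes. Members share libraries and cells, so they are not 10 separate observations of a tumour.

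That order was nearly the order of the estimated depth of the libraries. Ranked by depth, YKL-40 overexpressing library 1 and control 1 came lowest, then control 2, YKL-40 overexpressing library 3, YKL-40 overexpressing library 2 and control 3, and ranked by the members only the lowest pair changed places. FPKM values are already divided by depth, and the depth estimates relative to control 1 rest on 5 to 16 genes. In a fit with relative depth as a term, added once the values were known, 0 of 10 members were called by limma (2 at an unadjusted p under 0.05, Pecam1 and Plvap, lowest adjusted p = 0.0959), and 8 of 10 changes were above 0. Of all tested genes 17.6% were under that unadjusted p in the same fit, and 4 were called.

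**Figure D3:**
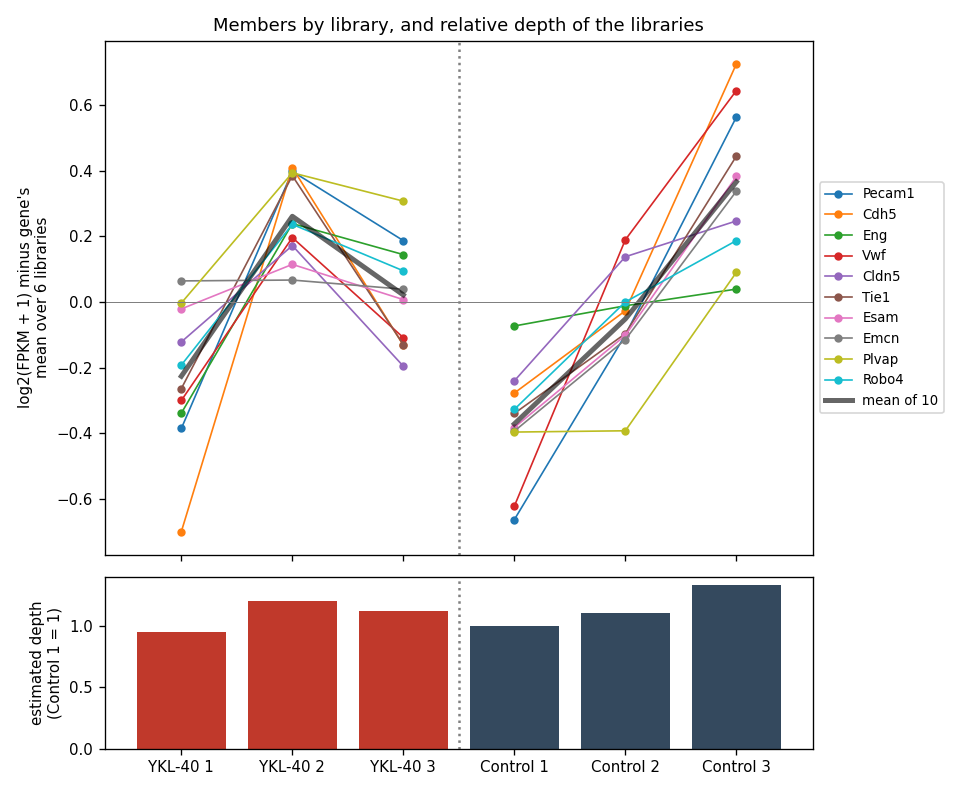
Upper panel: log2(FPKM + 1) of each member minus its own mean over the 6 libraries, YKL-40 overexpressing on the left and control on the right; thin lines join a gene's values within a group and mark no order, and the thick line is the mean of the 10. Lower panel: depth relative to control 1. The members lie together within a library, from -0.37 on average in control 1 to 0.37 in control 3, and the depth was 1 and 1.33 in those libraries.

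Some members kept their proportions better than others. The ratio of Esam to Emcn was the steadiest, between 0.325 and 0.378 in the 6 libraries, with an SD of 0.09 on the log2 scale. Pecam1 was 20.7 to 26.8 times Robo4. The least steady ratio was Cdh5 to Plvap, at 0.552, 1.01 and 0.701 in YKL-40 overexpressing tumours and 1.10, 1.35 and 1.63 in controls, which did not overlap. The groups were free of overlap for 6 of the 45 ratios between members, and 4 of these 6 involved Plvap. Set against the mean of the other 9 members, Plvap stood at 0.25, 0.15 and 0.32 in the YKL-40 overexpressing libraries, and at -0.03, -0.38 and -0.31 in the controls, on the centred log2 scale. It was the only member whose groups did not overlap on this measure. In level, the groups were free of overlap for 24.4% of all tested genes, a larger share than among these members or ratios. The share among ratios of other genes was not computed, so these counts do not set Plvap apart. The member ratios were looked at after the values were known, so they carry no test.

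Single libraries set the sign of most members. Without control 3 all 10 changes were above 0, with a median of 0.21, and without control 1 only 2 of 10 were, with a median of -0.14. In neither fit was any member called by limma (1 at an unadjusted p under 0.05 in each, Plvap without control 3 and Vwf without control 1). Of all tested genes, 18.2% were under that p without control 3 and 12.7% without control 1. The change of Plvap stayed between 0.38 and 0.63 in the fits without 1 library.

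Other pan-endothelial genes, 30 in the list, gave 0 called of 23 tested by limma, with 2 higher and 0 lower at an unadjusted p under 0.05. Their median change was 0.11, with 16 of 23 above 0. Tek, the angiopoietin receptor and partner of Tie1, had 2.63, 2.58 and 3.13 FPKM in YKL-40 overexpressing tumours, against 0.902, 1.13 and 2.13 FPKM in controls. Its groups did not overlap, as for 10.3% of all tested genes in that direction, and its change of 0.69 ± 0.20 (SE) had an adjusted p of 0.150. Tek was called without control 3, while over all alternatives its adjusted p ran from 0.033 to 0.90. Icam2, an endothelial ligand of leukocyte integrins, had 6.23, 5.71 and 7.45 FPKM in YKL-40 overexpressing tumours, against 2.51, 4.48 and 4.87 FPKM in controls (0.62, adjusted p = 0.196). Flt1, VEGF receptor 1 and the most abundant of the list, had 14.9, 43.0 and 34.8 FPKM in YKL-40 overexpressing libraries and 42.0, 34.4 and 55.6 FPKM in controls. Its change was -0.60 ± 0.37 (SE, adjusted p = 0.438), and it was -0.16 without YKL-40 overexpressing library 1. Kdr, VEGF receptor 2, was at 6.12, 9.30 and 7.81 FPKM in YKL-40 overexpressing tumours, against 5.46, 6.39 and 8.32 FPKM in controls (0.18, adjusted p = 0.638). The summed level of the list was 170.3, 242 and 217 FPKM in the YKL-40 overexpressing libraries and 172, 181 and 263 FPKM in the controls, with the same libraries high as for the 10 members.

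Of 22 endothelial transcription factors, 11 were tested and 0 called by limma, with 1 higher and 2 lower at an unadjusted p under 0.05 and a median change of 0.06. Elk3, an ETS factor, was lower in every YKL-40 overexpressing library, at 19.5, 21.8 and 17.6 FPKM, than in the controls, at 30.5, 28.9 and 27.8 FPKM, as were 14.2% of all tested genes. Its change of -0.55 ± 0.10 (SE) had an adjusted p of 0.0783, and it was called without YKL-40 overexpressing library 2. Tal1, a factor of blood and endothelial cells, was at 2.59, 3.90 and 3.22 FPKM in YKL-40 overexpressing tumours, against 5.15, 6.90 and 7.32 FPKM in controls (-0.82, adjusted p = 0.0845). Erg had 2.08, 2.84 and 2.49 FPKM in YKL-40 overexpressing tumours and 2.00, 1.81 and 3.36 FPKM in controls, with a change of 0.06 ± 0.19 (SE, adjusted p = 0.907). Fli1, which was below the filter and not tested, had 0.742, 0.654 and 0.946 FPKM in YKL-40 overexpressing tumours, against 0.317, 0.375 and 0.628 FPKM in controls. Its groups did not overlap, as for 10.3% of all tested genes in that direction. Ets1, which many cell types express, was the most abundant at 159.9 ± 16.4 FPKM in YKL-40 overexpressing tumours and 159.0 ± 31.5 FPKM in controls (SD, n = 3 each). Etv2 was at 0 in every library.

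Among 18 partners of the members at cell junctions, 14 were tested and 0 called by limma (2 higher at an unadjusted p under 0.05), with a median change of 0.00. Ctnnb1, β-catenin, which binds the tail of cadherins in every tissue, had 513 ± 74.8 FPKM in YKL-40 overexpressing tumours and 509.8 ± 33.99 FPKM in controls (SD, n = 3 each). Jam3, a junctional adhesion molecule, had a change of 0.34 ± 0.11 (SE, adjusted p = 0.189). Among 20 ligands and signalling partners, such as those of Tie1, Eng and Robo4, 15 were tested and 0 called by limma (1 higher at an unadjusted p under 0.05), with a median change of 0.10. Angpt2, the angiopoietin that endothelial cells release when vessels are remodelled, was at 10.2, 33.9 and 17.8 FPKM in YKL-40 overexpressing tumours, against 19.3, 31.4 and 33.7 FPKM in controls (-0.54, adjusted p = 0.512). Angpt1, an agonist of TEK made by mural cells, had 1.05, 1.12 and 4.30 FPKM in YKL-40 overexpressing tumours, against 0.613, 0.435 and 0.881 FPKM in controls (0.80, adjusted p = 0.301). Smad5, a BMP signal transducer and the most abundant, had a change of -0.30 ± 0.14 (SE, adjusted p = 0.311), and Cavin1, a caveolar coat protein, one of 0.64 ± 0.27 (SE, adjusted p = 0.278). Gdf2 and Bmp10, the ligands of endoglin, were at 0 in all 6 libraries.

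**Figure D4:**
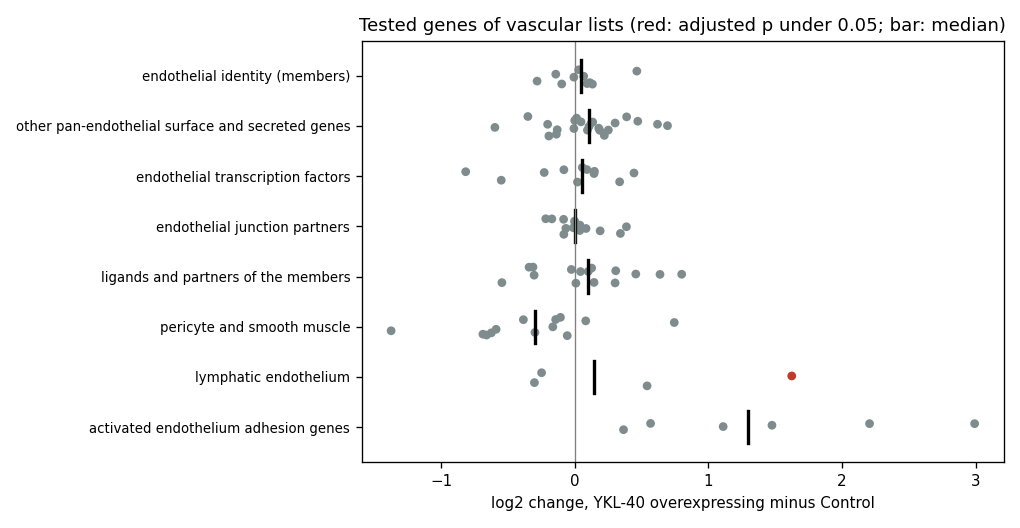
Log2 change, YKL-40 overexpressing minus control, of each tested gene of the vascular lists; red marks an adjusted p under 0.05 and black bars are medians. The 10 members centre on 0.05 and the other pan-endothelial genes on 0.11; the only red point is Lyve1.

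Of 10 adhesion genes of activated endothelium 6 were tested, with a median change of 1.29, and 0 were called by limma (4 higher at an unadjusted p under 0.05). Icam1, which endothelial and immune cells display for leukocyte integrins, had 7.62, 6.71 and 12.6 FPKM in YKL-40 overexpressing tumours, against 1.45, 2.61 and 3.74 FPKM in controls (1.48, adjusted p = 0.0834). Ly6a, or Sca-1, which T cells and stem cells also carry, had the largest change of the list, 2.99 ± 0.52 (SE, adjusted p = 0.0734). Leaving out control 3 made calls of Icam1 and Ly6a, and leaving out YKL-40 overexpressing library 2 made calls of Ly6a, Ly6c1 and Cd40, all higher. These fits called 209 of 11223 and 238 of 11242 tested genes, against 49 in the main fit. The selectin Selp, which is stored with von Willebrand factor, was at 0.323, 3.18 and 2.58 FPKM in YKL-40 overexpressing tumours, against 0.409, 0.833 and 1.35 FPKM in controls (0.57, adjusted p = 0.525), and the selectin Sele was at most 0.174 FPKM. Neither Icam1 nor Ly6a is confined to endothelium, and leukocyte genes moved with them: the summed level of 7 pan-leukocyte genes was 217 to 277 FPKM in YKL-40 overexpressing libraries and 64.6 to 163 FPKM in controls. The part of leukocytes in these changes was not tested.

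Of lymphatic endothelial genes, 4 of 8 were tested and 1 was called, Lyve1, a hyaluronan receptor of lymphatic vessels and of some macrophages. It rose to 3.84, 4.17 and 5.42 FPKM in YKL-40 overexpressing tumours, against 0.273, 0.940 and 1.22 FPKM in controls, a change of 1.62 ± 0.23 (SE, adjusted p = 0.0431, from 0.00738 to 0.90 over the alternatives). The call was lost when control 1, control 2, YKL-40 overexpressing library 1 or YKL-40 overexpressing library 3 was left out (adjusted p from 0.0931 to 0.139). With pseudocounts of 0.1 and 0.01 the change was larger, 2.50 and 2.68, and so was its SE, and the call was lost (adjusted p = 0.0744 and 0.0848). It was also lost with no filter (0.115) and with the depth term (0.0647). Prox1, the transcription factor of lymphatic identity, was lower in all YKL-40 overexpressing libraries, at 2.21, 2.32 and 2.28 FPKM against 3.51, 2.83 and 2.78 FPKM in controls (-0.30, adjusted p = 0.258). Pdpn, podoplanin, had a change of 0.54 (adjusted p = 0.473), and Ccl21a was at 0 in every library.

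Pericytes and smooth muscle cells wrap the endothelial tube. Of 15 genes of these cells, 13 were tested and 0 called by limma (1 higher and 2 lower at an unadjusted p under 0.05), with a median change of -0.30. Only 2 of the 13 changes were above 0, those of Pdgfrb and Anpep. The 2 lower genes were Des, also in the muscle list (-1.37, adjusted p = 0.232), and Cspg4 (-0.59, adjusted p = 0.260). Kcnj8 and Abcc9 were at -0.66 and -0.62. Pdgfrb, the receptor by which endothelial PDGF-B holds pericytes, had 5.65, 12.4 and 9.90 FPKM in YKL-40 overexpressing tumours and 5.27, 8.04 and 13.5 FPKM in controls (0.08, adjusted p = 0.926). The libraries that were high for the members were high for Pdgfrb too. Ndufa4l2, the most abundant, had 46.6 ± 41.2 FPKM in YKL-40 overexpressing tumours and 66.4 ± 32.7 FPKM in controls (SD, n = 3 each), and Anpep, which macrophages also carry, a change of 0.75 ± 0.25 (SE, adjusted p = 0.199).

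Pdgfrb was also among the 5 genes most like the members by rule. Likeness was the Pearson correlation over the 6 libraries with the mean centred profile of the 10 members, taken over 11231 tested genes that are not members, and it is a ranking with no test. In order, the 5 were Cxcr4, Ccdc102a, Nid2, Lama2 and Pdgfrb. Cxcr4 is a chemokine receptor found on sprouting endothelium and on leukocytes, and it had 3.21, 5.96 and 4.71 FPKM in YKL-40 overexpressing libraries and 2.51, 4.34 and 6.82 FPKM in controls. Nid2 and Lama2 encode proteins of basement membranes, and Nid2 had 7.76, 18.7 and 11.2 FPKM in YKL-40 overexpressing tumours, against 6.85, 10.0 and 19.2 FPKM in controls. Among the 100 genes ranked first were 5 of the 23 other pan-endothelial genes (Cd93, Mmrn2, Kdr, Ecscr and Nos3), 4 of 15 tip cell genes (Cxcr4, Nid2, Lamb1 and Unc5b), 1 of 11 transcription factors (Ets2), 1 of 15 ligands and partners (Unc5b again) and 1 of 13 pericyte genes (Pdgfrb). There were 0 from 4 other vascular lists, namely 14 junction partners, 10 arterial and venous genes, 6 genes of activated endothelium and 4 lymphatic genes. There were also 0 from the macrophage, fibroblast, leukocyte, muscle, erythroid, platelet and melanoma lists. The first 100 are a small part of 11231 genes, so a 0 from lists this short says little.

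Markers of other cells are given here because some of those cells share genes with endothelium. The 14 macrophage and monocyte genes, whose cells can carry Pecam1 and Eng, summed to 348, 416 and 508 FPKM in the YKL-40 overexpressing libraries and to 96.9, 172 and 313 FPKM in the controls. Of these 14, 11 were higher at an unadjusted p under 0.05 in limma and 0 were called (C1qa 1.80, adjusted p = 0.0765, Lyz2 0.96). The 7 pan-leukocyte genes gave 7 higher at that p and 0 called (Laptm5 1.99, Lcp1 1.03), and the 10 fibroblast genes, 9 of them tested, gave 9 higher and 0 called (Lum 1.61, Col3a1 1.98). These counts of 0 turned on single libraries and also on the model, as given below for the replicate block and array quality weights. Without control 3, limma called 9 of the macrophage genes, 5 of the leukocyte genes and 4 of the fibroblast genes, all higher, and without YKL-40 overexpressing library 2 it called 1, 3 and 3 of them. Calls over all tested genes were 209 of 11223 without control 3 and 238 of 11242 without YKL-40 overexpressing library 2, against 49 in the main fit. The change of Lyz2 was 0.47 without control 1 and 1.47 without control 3. Fibroblast sums were 363, 246 and 434 FPKM in YKL-40 overexpressing libraries and 43.7, 96.9 and 257 FPKM in controls. In the controls, library 3 had the highest sum and library 1 the lowest for macrophage, leukocyte and fibroblast genes, as for the 10 members. In the YKL-40 overexpressing group, library 2, the highest for the members, had the lowest leukocyte and fibroblast sums. The macrophage sum in that group was lowest in library 1, as was the members' mean, and highest in library 3. The part of these cells in the member values was not tested.

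Skeletal muscle has its own capillaries and lies near the injection site. The 17 muscle genes summed to 13.6, 36.8 and 7.31 FPKM in the YKL-40 overexpressing libraries and to 101.6, 54.9 and 229 FPKM in the controls, and of 13 tested, 12 were lower at an unadjusted p under 0.05 in limma and 0 were called (Myl1 -2.15, Tnnt3 -3.27; 3 were called lower without YKL-40 overexpressing library 2). Control 3, the highest library for 7 members, had the highest muscle sum. YKL-40 overexpressing library 2 had the highest muscle sum of its group, and all 10 members were highest there within that group. Control 1 had a higher muscle sum than control 2, and all 10 members were lower in control 1. YKL-40 overexpressing library 3 had the lowest muscle sum, and 8 of 10 members were higher in it than in YKL-40 overexpressing library 1. The part of muscle in the member values was not tested. In a fit with the log2 muscle sum as a term, also added once the values were known, all 10 member changes were above 0, with a median of 0.45, and 0 were called by limma (1 at an unadjusted p under 0.05, Plvap, lowest adjusted p = 0.90). In that fit limma called 0 of all tested genes (520 at an unadjusted p under 0.05, which is 4.63%). The muscle sums did not overlap between the groups, so in 6 libraries this term can hardly be parted from group. No conclusion is drawn from the shifted changes.

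**Figure D5:**
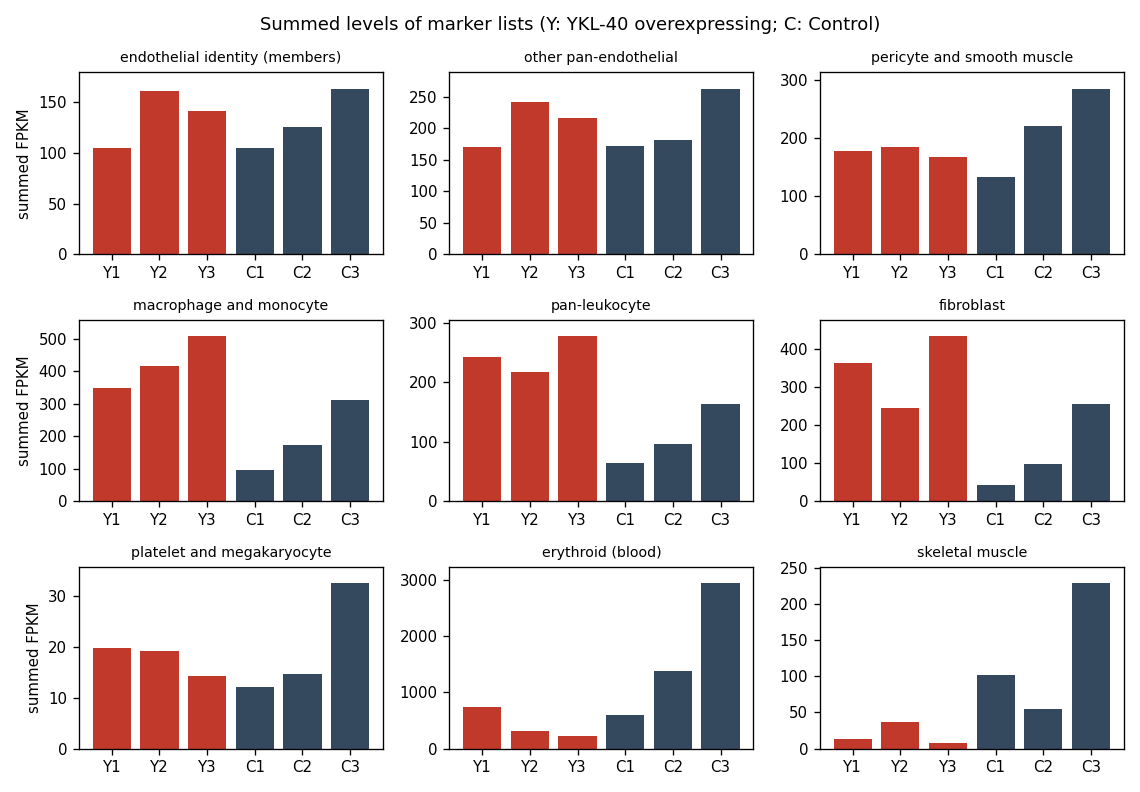
Summed FPKM of the genes of 9 marker lists in each library, YKL-40 overexpressing (Y1 to Y3) left of control (C1 to C3); axes start at 0 and differ by panel. The endothelial sums overlap between the groups (for the members 105.0 to 161 FPKM in YKL-40 overexpressing and 105.0 to 163 FPKM in control libraries), the leukocyte sums are higher in every YKL-40 overexpressing library, and the muscle sums are lower.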

How the data were processed

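RNA of 6 tumours was sequenced from TruSeq RNA v2 libraries made with 2 µg of total RNA, per the labels' protocols. The deposited values are FPKM, 1 per gene and library; the build mm10 and the tools HISAT2, StringTie, bcl2fastq 2.0, limma and DESeq2 are named, without roles, in the submitters' processing notes. The annotation they counted on: not given in the sources used here. Read totals are unknown, so no counting interval is given. Relative depth was taken as the most common ratio to control 1 among values under 0.3 FPKM (5 to 16 genes shared it to within 0.0001 on the log2 scale), looking only within 0.5 on the log2 scale, so larger differences in depth could not show. That limit was set after first estimates were seen, and the value of YKL-40 overexpressing library 3 rests on 5 genes.

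Groups came from the titles. Genes averaging 1 FPKM or more were tested on log2(FPKM + 1) with limma 3.58.1 in R 4.3.3, with a variance trend, two-sided, adjusted by Benjamini-Hochberg over all 11241 genes with a threshold of 0.05. On simulated data of 11241 genes, 74.8% of changes of 1 and 94.4% of changes of 2 on the log2 scale were recovered, and 5.24% of calls were false. The simulated noise was drawn for each gene on its own, while genes here varied together between libraries. These shares therefore check the code and do not carry over to the real libraries. Members and the 17 gene lists were chosen with earlier results of these data known. Named genes are the members and, from each list, the most abundant gene, the tested gene of lowest p and called genes, plus the 5 most like the members; others were chosen after their values were seen. Alternatives were pseudocounts of 0.1 and 0.01, no filter or one at 5 FPKM, other scalings, no trend, array weights, a replicate block, leaving out each library, and 2 covariates added after the data were seen. Sequences are from RefSeq (GRCm38.p6), positions from its gene table of the same build, and exon overlaps from GENCODE M21.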

Additional observations from a re-analysis of the deposited data

How the results depend on the processing

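The count of 0 called members held in all 17 alternatives (limma; 0 to 2 members at an unadjusted p under 0.05), of which the filter at 5 FPKM tested 7 members, with the lowest adjusted p, 0.0517, for Plvap with array quality weights. The median change of the members was 0.45 with the muscle covariate and within the spread of the libraries in the other alternatives, from -0.14 to 0.21 without 1 library. Over all tested genes the 49 calls became 1 without a filter, 1111 with array quality weights, 120 with the replicate block, 4 with the depth covariate, 0 with the muscle covariate and 0 to 238 without 1 library, the 0 being without control 2 (limma, 1345 genes at an unadjusted p under 0.05). Array quality weights called 1 other pan-endothelial gene (Tek) and 3 transcription factors (Elk3, Tal1 and Epas1), and leaving out 1 library gave 0 to 1 for both lists. Array quality weights also called 7 of 7 leukocyte, 10 of 14 macrophage, 7 of 9 fibroblast and 4 of 6 activated endothelium genes, all higher. The cause of these moves was not tested.

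Some changes took the other sign, all without a call. With median of ratios scaling, Tie1 was at 0.015, Ctnnb1 at 0.026 and Itgb3 at 0.019. With array quality weights, Ctnnb1 was at 0.069 and Col4a1 at 0.0030. With the depth covariate, Vwf was at 0.0086, Tie1 at 0.115, Ctnnb1 at 0.018, Col4a1 at 0.0066 and Itgb3 at 0.037. With the muscle covariate, Cdh5 was at 0.67, Vwf at 0.44, Cldn5 at 0.25, Tie1 at 0.74, Flt1 at 0.17, Ctnnb1 at 0.061, Col4a1 at 0.58 and Itgb3 at 0.41. The muscle sums separate the groups, so that fit can hardly part muscle from group. Without 1 library, the changes ran from -0.16 to 0.45 for Pecam1, -0.56 to 0.012 for Cdh5, -0.082 to 0.21 for Eng, -0.49 to 0.15 for Vwf, -0.24 to 0.0028 for Cldn5, -0.20 to 0.21 for Tie1, -0.11 to 0.28 for Esam, -0.055 to 0.31 for Emcn, -0.047 to 0.21 for Robo4, -0.085 to 0.12 for Ctnnb1, -0.27 to 0.087 for Col4a1, -0.068 to 0.18 for Ets1, -0.14 to 0.15 for Itgb3 and -0.37 to 0.99 for Pf4.

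Same-numbered libraries of the groups did not deviate together (r over genes of -0.083, -0.19 and 0.0017). The labels do not say whether the numbers pair libraries, and such correlations over so few libraries cannot decide it. The replicate block called 0 members too, with a change of 0.47 for Plvap (limma, adjusted p = 0.256). Over all tested genes it called 120, against 49 in the main fit. Among the calls were 4 of 14 macrophage, 2 of 7 leukocyte, 2 of 9 fibroblast and 3 of 6 activated endothelium genes, all higher.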

Other observations

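Of 15 tip cell genes 0 were called by limma (2 higher at an unadjusted p under 0.05), with a median change of -0.02. The most abundant, Col4a1, a basement membrane collagen, had 51.7 ± 13.7 FPKM in YKL-40 overexpressing tumours and 53.8 ± 8.89 FPKM in controls (SD, n = 3 each), and Pgf, a ligand of VEGF receptor 1, had 18.8 ± 7.57 FPKM in YKL-40 overexpressing tumours and 8.24 ± 3.31 FPKM in controls, a change of 1.08 with an adjusted p of 0.184. Of 14 arterial and venous genes 10 were tested and 0 called by limma (1 higher at an unadjusted p under 0.05), with a median of -0.06. That gene was Nrp2, a neuropilin, at 113 ± 29.4 FPKM in YKL-40 overexpressing tumours and 73.2 ± 18.9 FPKM in controls (0.62, adjusted p = 0.244).

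Genes of red blood cells, a measure of blood in the tissue, summed to 746, 318 and 220.0 FPKM in the YKL-40 overexpressing libraries and to 603, 1389 and 2947 FPKM in the controls. Of 8 tested, 2 were higher and 4 lower at an unadjusted p under 0.05 in limma, and 1 was called higher, Hba-a1 (6.37, adjusted p = 0.0303), while its near-identical copy Hba-a2 was at -7.05 (adjusted p = 0.0965), so how reads were shared between the copies is uncertain and only the sum is read here. The call of Hba-a1 was lost with no filter (adjusted p = 0.106), with a pseudocount of 0.01 (0.0727), without control 1 (0.0931), without control 2 (0.0653), with the depth term (0.0505) and with the muscle term (0.90), and Hba-a2 was called without YKL-40 overexpressing library 1 (0.0244) and with array quality weights (0.0118). Control 3, the highest library for 7 of the 10 endothelial members, had the highest sum of these genes. In the controls the sums rose from library 1 to library 2 to library 3, as did all 10 members. YKL-40 overexpressing library 2, which ranked just below control 3 by the members' mean, had 318 FPKM. The part of blood in the member values was not tested.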
